A study of Mus musculus with 6 samples.

Results

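The interleukin-4 (IL-4) and interleukin-13 (IL-13) receptor to STAT6 axis was followed in cultured lung mesenchymal stromal cells (LMSCs) of mice with mammary tumors. Its members were the 10 genes of that name set, found by gene name among the 34745 genes of the expression table: the receptor chains Il4ra, Il13ra1, Il13ra2 and Il2rg, the transcription factor Stat6, the kinases Jak1, Jak2, Jak3 and Tyk2, and the inhibitor Socs1. RNA-seq had been done on LMSCs from MMTV-PyMT transgenic mice, in which the mouse mammary tumor virus promoter drives the polyoma middle T antigen in mammary epithelium. The groups were A-LMSC from the adenoma stage (6 to 7 weeks of age by the labels), PM-LMSC from the pre-metastatic stage (9 to 10 weeks) and M-LMSC from the metastatic stage (13 to 14 weeks), with 2 libraries each, all at passage 3. The cells had been grown out of digested lung by adherence and depleted of CD45-positive cells. Tumor stage and the age of the mouse cannot be told apart, and cells of tumor-free mice were not analysed here. The study describes the replicates of a stage as mice, and the labels give only a number for each. Its methods give slightly older mice for the A-LMSC and PM-LMSC stages than the labels do, and it sequenced more cells of each stage in another series, which was not analysed here.

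IL-4 and IL-13 are products of type 2 immune cells and act through receptors that share the IL-4 receptor alpha chain, encoded by Il4ra. In the type I receptor this chain pairs with the common gamma chain, encoded by Il2rg, which is typical of haematopoietic cells and signals through JAK3. In the type II receptor it pairs with the IL-13 receptor alpha 1 chain, encoded by Il13ra1, which is typical of stromal and epithelial cells, signals through TYK2 or JAK2, and binds IL-13 as well as IL-4. JAK1 serves the IL-4 receptor alpha chain, and both receptors lead to phosphorylation of STAT6, an event that transcript levels do not measure.

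The cultures carried transcripts of stromal cells. Values are FPKM, fragments scaled to gene length and to the mapped fragments of the library, so levels of different genes can be set side by side. Col1a1, which encodes a fibrillar collagen chain and was the most abundant of 13 stromal markers, had 1092 and 1103 FPKM in A-LMSC, 761 and 1039 in PM-LMSC and 808 and 1472 in M-LMSC. The mean of each of the 13 stromal markers reached 1 FPKM. Transcripts of haematopoietic cells were present too, and 9 of 16 markers of those cells reached a mean of 1 FPKM. Lyz2, a macrophage lysozyme and the most abundant of them, ran from 60.6 to 362.3 FPKM, while Ptprc, which encodes CD45, lay between 0.0254 and 0.0987 FPKM. Of 10 lymphoid and 7 mast cell markers 0 reached a mean of 1 FPKM.

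Il4ra was the most abundant member. Il4ra (chr7:125552120-125579474, plus strand, GRCm38) had 31.9 and 34.9 FPKM in A-LMSC, 33.8 and 42.7 in PM-LMSC and 33.3 and 54.2 in M-LMSC. The stages overlapped, and M-LMSC replicate 2 was the highest library. The mean was 33.4 ± 2.09 (SD, n = 2) in A-LMSC, 38.3 ± 6.30 (SD, n = 2) in PM-LMSC and 43.8 ± 14.8 (SD, n = 2) in M-LMSC. Averaged over the 6 libraries, Il4ra stood above 88.1% of the 10279 genes whose own mean reached 1 FPKM. An antisense gene, Gm44876, shares 571 bases with its exons, and reads of the pair cannot be told apart without strand.

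The chain that completes the type II receptor was transcribed at every stage. Il13ra1 (chrX:36112110-36171259, plus strand) had 3.94 and 4.002 FPKM in A-LMSC, 4.10 and 3.88 in PM-LMSC and 4.53 and 6.49 in M-LMSC. Both M-LMSC libraries lay above the other 4, and A-LMSC and PM-LMSC overlapped. The mean was 3.97 ± 0.0428 (SD, n = 2) in A-LMSC, 3.99 ± 0.154 (SD, n = 2) in PM-LMSC and 5.51 ± 1.39 (SD, n = 2) in M-LMSC.

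The chain that completes the type I receptor was near the floor of the libraries. Il2rg (chrX:101264378-101268255, minus strand) had 0.211 and 0.189 FPKM in A-LMSC, 0.112 and 0.121 in PM-LMSC and 0.366 and 0.249 in M-LMSC. The listed values of the stages did not overlap, but they rest on too few fragments for the stages to be ranked. From the steps between low values, the libraries were estimated to hold 14790000 to 20850000 mapped fragments, and 95.7% to 96.2% of the low values of single-transcript genes then came within 0.05 of a whole fragment. On that estimate, which is approximate for genes with several transcripts, Il2rg rested on 10.5 and 7.88 fragments in A-LMSC, 3.94 and 4.60 in PM-LMSC and 14.5 and 9.85 in M-LMSC. A gene on the same strand, Gm20489, shares 728 bases with its exons and was listed at 0 in all 6 libraries.

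Within each library the type II chain exceeded the gamma chain. The ratio of Il13ra1 to Il2rg on the FPKM scale was 18.7 and 21.2 in A-LMSC, 36.7 and 32.0 in PM-LMSC and 12.4 and 26.1 in M-LMSC. The ratio of Il4ra to Il13ra1 ran from 7.36 to 11.0, so the shared alpha chain was in excess of its type II partner in all 6 libraries. The other receptors that use the gamma chain were low as well, and 0 of their 6 partner chains reached a mean of 1 FPKM. Il7r, the most abundant of them, ran from 0.0356 to 0.316 FPKM.

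The decoy receptor for IL-13 was at or close to 0. Il13ra2 (chrX:147383476-147429192, minus strand), whose product binds IL-13 without the signaling tail of the other chains, was listed at 0 in both A-LMSC libraries, had 0.105 and 0.0488 FPKM in PM-LMSC and 0.0234 in each M-LMSC library. Its highest value corresponded to an estimated 3.54 fragments, so its stages cannot be ranked at this depth.

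**Figure D1:**
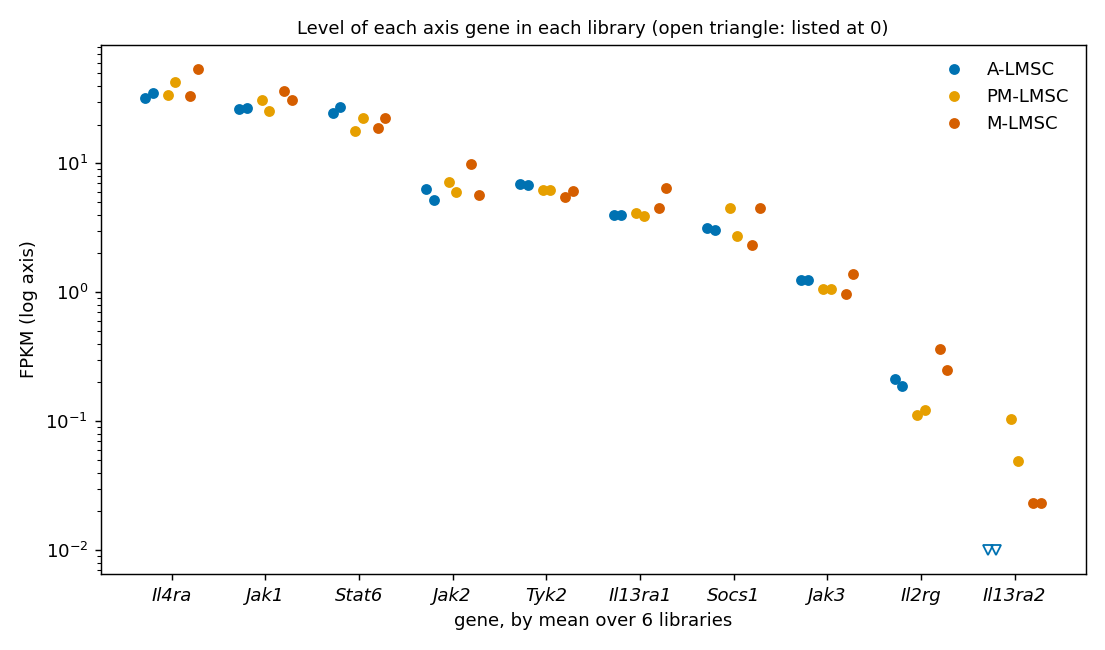
Each point is the FPKM of one gene in one library, on a log axis, with genes in order of their mean over the 6 libraries and stages in color. Open triangles at the bottom mark Il13ra2 listed at 0. Il4ra lay between 31.9 and 54.2 FPKM and Il2rg between 0.112 and 0.366.

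The kinases were ordered in the same way as the receptor chains they serve. Jak1 (chr4:101152367-101265282, minus strand) had 26.6 and 26.9 FPKM in A-LMSC, 31.2 and 25.5 in PM-LMSC and 36.7 and 30.9 in M-LMSC. The M-LMSC libraries lay above both A-LMSC libraries, while PM-LMSC overlapped both other stages. The mean was 26.8 ± 0.198 (SD, n = 2), 28.3 ± 4.03 (SD, n = 2) and 33.8 ± 4.12 (SD, n = 2) FPKM in A-LMSC, PM-LMSC and M-LMSC.

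Both kinases of the type II receptor were present at a middle level. Jak2 (chr19:29251828-29313080, plus strand) had 6.33 and 5.21 FPKM in A-LMSC, 7.17 and 5.94 in PM-LMSC and 9.84 and 5.68 in M-LMSC, and all stages overlapped. Tyk2 (chr9:21104068-21131243, minus strand) had 6.94 and 6.79 FPKM in A-LMSC, 6.20 and 6.16 in PM-LMSC and 5.44 and 6.05 in M-LMSC. All 4 later libraries had less Tyk2 than both A-LMSC libraries, and the M-LMSC libraries had the least. The antisense gene 1700084C06Rik shares 554 bases with the exons of Tyk2 and did not exceed 0.242 FPKM.

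Jak3, the kinase of the gamma chain, was the least abundant of the 4 kinases in every library. Jak3 (chr8:71676296-71690575, plus strand) had 1.24 and 1.25 FPKM in A-LMSC, 1.06 and 1.06 in PM-LMSC and 0.964 and 1.38 in M-LMSC. PM-LMSC lay below A-LMSC, and the M-LMSC libraries spanned both. Jak1 exceeded Jak3 by a ratio of 21.4 to 38.1, Jak2 by 4.13 to 10.2 and Tyk2 by 4.40 to 5.83. Insl3, on the same strand, shares 404 bases with Jak3 and did not exceed 0.109 FPKM.

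By level, then, the transcripts for both chains of a type II receptor and for the kinases that serve them (Il4ra, Il13ra1, Jak1, Jak2 and Tyk2) were all measured at 3.88 FPKM or more in each of the 6 libraries. Of the transcripts particular to a type I receptor, Jak3 lay near 1 FPKM and Il2rg did not exceed 0.366 FPKM. The levels allow the type II receptor at all 3 stages. They give the type I receptor a gamma chain transcript of a few fragments per library. Whether any cell carried either receptor was not measured, nor which cells of the cultures the transcripts came from.

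Stat6, the transcription factor at the end of the axis, was lower in the later stages' libraries. Stat6 (chr10:127642986-127660957, plus strand) had 24.5 and 27.4 FPKM in A-LMSC, 17.9 and 22.4 in PM-LMSC and 18.9 and 22.4 in M-LMSC. All 4 later libraries lay below both A-LMSC libraries, and PM-LMSC and M-LMSC overlapped. The mean was 25.9 ± 2.06 (SD, n = 2), 20.1 ± 3.17 (SD, n = 2) and 20.6 ± 2.50 (SD, n = 2) FPKM in A-LMSC, PM-LMSC and M-LMSC. Among the 6 other STAT genes the most abundant was Stat3, which serves IL-6 family receptors, with 15.8 and 17.6 FPKM in A-LMSC, 20.9 and 18.1 in PM-LMSC and 23.9 and 23.3 in M-LMSC. Stat3 was thus below Stat6 in both A-LMSC libraries (ratios of 0.645 and 0.643) and above it in both M-LMSC libraries (ratios of 1.27 and 1.04). The PM-LMSC libraries lay on both sides, with ratios of 1.17 and 0.808.

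The small interfering RNA with which the study depleted Stat6 is shown as the designed reagent against this member. Its sense strand has 19 bases.

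Stat6 siRNA, sense: GUGAAAGCCUGGUGGAAAU

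Read as DNA, it matched chr10:127651952-127651970 (GRCm38, plus strand), in the coding part of exon 8 of the transcript Stat6-201 of 3775 bases. Of 5 annotated Stat6 transcripts 1 held the match, and 0 other genes had an exact match in their transcripts. The Stat6 transcripts without the match were shorter, at 341 to 768 bases.

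Socs1, the feedback inhibitor that STAT6 and other STATs induce, varied most between libraries among the 8 members tested. Socs1 (chr16:10782240-10785536, minus strand) had 3.15 and 3.04 FPKM in A-LMSC, 4.49 and 2.73 in PM-LMSC and 2.33 and 4.50 in M-LMSC. The libraries of PM-LMSC and of M-LMSC lay on both sides of the A-LMSC libraries. Its SD over the 6 libraries was 0.296 on the log2(FPKM + 1) scale. The 5 genes outside the axis with the nearest profile, by the root mean square difference of centred log2(FPKM + 1) over 6 libraries, were Zfp277 (0.0955), Serf2 (0.102), Gm28529 (0.104), Kbtbd4 (0.107) and Gm16062 (0.129). Socs5 was the most abundant of the 7 other SOCS family genes, at 34.6 to 43.0 FPKM, or 7.85 to 16.5 times Socs1 within a library.

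In order of mean level the members were Il4ra, Jak1, Stat6, Jak2, Tyk2, Il13ra1, Socs1, Jak3, Il2rg and Il13ra2. The ranges of neighbours were apart between Stat6 and Jak2, Socs1 and Jak3, Jak3 and Il2rg, and Il2rg and Il13ra2. The other neighbours overlapped over the libraries, and Jak2 exceeded Tyk2 in 2 of 6.

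The comparisons between stages asked whether LMSCs change the axis as the tumor advances. Il2rg and Il13ra2 did not reach a mean of 1 FPKM, so 8 of the 10 members were tested, among 10279 genes. By limma on log2(FPKM + 1), with Benjamini-Hochberg adjustment over all genes tested and a threshold of 0.05, 0 of 8 members passed in PM-LMSC vs A-LMSC, where 0.0389% of all genes tested did. In M-LMSC vs A-LMSC 0 of 8 passed beside 0.0681% of all genes, and in M-LMSC vs PM-LMSC 0 of 8 beside 0.0292%. At an unadjusted p under 0.05 limma also gave 0 of 8 in each comparison, beside 6.53%, 14.6% and 8.94% of all genes in the same order. With the replicate number as a block, limma gave 0 of 8 at the adjusted threshold in each, beside 0.292%, 3.92% and 0.418% of all genes. At the unadjusted threshold the block gave 1 of 8 in PM-LMSC vs A-LMSC (Stat6) beside 13.8% of all genes, 4 of 8 in M-LMSC vs A-LMSC (Il4ra, Il13ra1, Jak1 and Stat6) beside 24.3%, and 1 of 8 in M-LMSC vs PM-LMSC (Il13ra1) beside 16.0%. Over all genes the adjusted calls numbered 4, 7 and 3, and with the replicate block 30, 403 and 43. With any 1 library left out they ran from 1 to 30, 1 to 99 and 2 to 25.

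In PM-LMSC vs A-LMSC the largest fitted difference among the members was that of Stat6. Its log2 fold change on the log2(FPKM + 1) scale was -0.36 (SE 0.15, limma adjusted p = 0.771), with a 95% confidence interval of -0.72 to 0.0047, and of -0.59 to -0.12 with the replicate block (limma adjusted p = 0.188). It was -0.20 without PM-LMSC replicate 1 and -0.51 without PM-LMSC replicate 2. Both libraries of PM-LMSC lay below both of A-LMSC for 3 of 8 members (Stat6, Jak3 and Tyk2), beside 19.7% of all genes tested. They lay above for 0 of 8, beside 19.6%. Il4ra and Il13ra1 had log2 fold changes of 0.18 (95% confidence interval -0.38 to 0.74) and 0.0056 (-0.39 to 0.40). That of Il4ra was 0.35 without PM-LMSC replicate 1 and 0.019 without PM-LMSC replicate 2. The median over the 8 members was 0.039, and over all genes tested 0.011.

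In M-LMSC vs A-LMSC, Il13ra1 and Jak1 were higher in both M-LMSC libraries, 2 of 8 members beside 27.1% of all genes tested, and Stat6 and Tyk2 were lower, 2 of 8 beside 24.4%. The log2 fold change of Il13ra1 was 0.37 (SE 0.16, limma adjusted p = 0.356), with a 95% confidence interval of -0.018 to 0.76. Without M-LMSC replicate 2 it was 0.15, and without M-LMSC replicate 1 it was 0.59. That of Jak1 was 0.32 (SE 0.14, limma adjusted p = 0.355) and that of Stat6 -0.32 (SE 0.15, limma adjusted p = 0.385). Without M-LMSC replicate 1 these were 0.20 and -0.20, and without M-LMSC replicate 2 they were 0.44 and -0.44. With the replicate block the 95% confidence intervals were 0.031 to 0.71 for Il13ra1, 0.055 to 0.59 for Jak1 and -0.56 to -0.085 for Stat6, with limma adjusted p of 0.181, 0.149 and 0.119. Of 16 haematopoietic markers 14 and of 9 epithelial markers 5 were, like Il13ra1, highest in both M-LMSC libraries. Among markers that were tested these were 9 of 9 haematopoietic and 0 of 2 epithelial ones, beside 11.8% of all genes tested. The part of such cells in the value of Il13ra1 was not tested. Il4ra had 0.34 (SE 0.23, limma adjusted p = 0.520), and without M-LMSC replicate 2 its value was -0.0024. The median was 0.19 over the members and 0.027 over all genes tested. Both later stages share the A-LMSC libraries as their reference, and in all 4 later libraries 2 of 8 members, Stat6 and Tyk2, were below both A-LMSC libraries, as were 10.7% of all genes tested.

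In M-LMSC vs PM-LMSC 1 of 8 members, Il13ra1, was higher in both M-LMSC libraries, beside 17.8% of all genes tested, and 1 of 8, Tyk2, was lower, beside 16.7%. The log2 fold change of Il13ra1 was 0.37 (SE 0.16, limma adjusted p = 0.585), and 0.15 without M-LMSC replicate 2 and 0.59 without M-LMSC replicate 1. The median over the members was 0.11, and over all genes tested -0.0024.

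**Figure D2:**
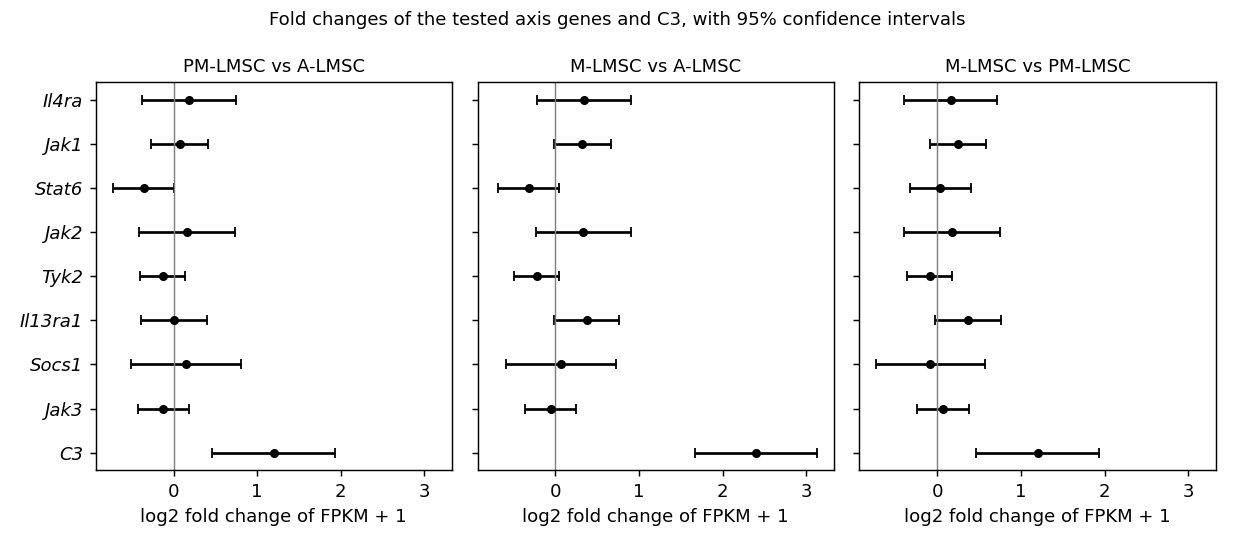
Points are log2 fold changes on the log2(FPKM + 1) scale from limma for the 8 members tested and C3, in 3 comparisons of 2 libraries against 2, and bars are 95% confidence intervals from the fit without the replicate block. These intervals include 0 for the 8 members in each comparison and lie above 0 for C3. With the block those of Stat6 in both comparisons with A-LMSC, of Il4ra and Jak1 in M-LMSC vs A-LMSC and of Il13ra1 in both comparisons of M-LMSC did not include 0.

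C3, the complement component whose induction by IL-4 and IL-13 the study examined, had 2.19 and 2.30 FPKM in A-LMSC, 5.11 and 8.06 in PM-LMSC and 11.6 and 22.2 in M-LMSC. The stages did not overlap, with A-LMSC lowest and M-LMSC highest. The log2 fold change was 1.20 in PM-LMSC vs A-LMSC (SE 0.31, limma adjusted p = 0.452) and 2.40 in M-LMSC vs A-LMSC (SE 0.31, limma adjusted p = 0.0720). With the replicate block the limma adjusted p of the latter was 0.0094, without M-LMSC replicate 1 it was 0.00785 and without M-LMSC replicate 2 it was 0.0386. Over the 12 alternatives it ran from 0.00785 to 0.387, and 9 of them did not pass. Both M-LMSC libraries were highest, as for 14 of 16 haematopoietic and 5 of 9 epithelial markers. Among markers that were tested these were 9 of 9 haematopoietic and 0 of 2 epithelial ones, beside 11.8% of all genes tested. C3 was also higher in both PM-LMSC libraries than in A-LMSC. In PM-LMSC vs A-LMSC the median log2 fold change was -0.0018 over 9 haematopoietic markers, 1.27 over 6 mesothelial ones and 1.31 over 2 epithelial ones. The part of any of these cells in C3 was not tested. The listed transcript values of C3 and Stat6 thus had opposite orders between A-LMSC and the later stages. Transcript level does not measure STAT6 phosphorylation, which the study found by immunoblot to be higher in PM-LMSC and M-LMSC than in A-LMSC. The study also reported less C3 in LMSCs that lacked Stat6.

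Transcripts of the ligands were at or near 0. Il13 was listed at 0 in all 6 libraries. Il4 ran from 0.0849 to 0.222 FPKM, which corresponded to an estimated 1.73 to 4.32 fragments.

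Genes known to respond to IL-4 or IL-13 were followed as a list. Of 23 in the list 22 were in the table and 12 were tested, and 0 of 12 passed in any of the 3 comparisons by limma. At an unadjusted p under 0.05 limma gave 1 of 12 in PM-LMSC vs A-LMSC, 4 in M-LMSC vs A-LMSC and 2 in M-LMSC vs PM-LMSC, beside the 6.53%, 14.6% and 8.94% of all genes tested. With the replicate block 3 of 12 passed, all higher, in M-LMSC vs A-LMSC, beside 3.92% of all genes tested. The log2 fold change was above 0 for 10 of 12 and below 0 for 2 in each later stage against A-LMSC, beside 52.5% of all genes tested above 0 in PM-LMSC vs A-LMSC and 54.7% in M-LMSC vs A-LMSC. It was above 0 for 9 and below for 3 in M-LMSC vs PM-LMSC, beside 49.4% above 0. Its median over the 12 was 0.12 in PM-LMSC vs A-LMSC and 0.40 in M-LMSC vs A-LMSC, beside 0.011 and 0.027 over all genes tested. Chil3, a chitinase-like gene of alternatively activated macrophages, had 0.879 and 0.634 FPKM in A-LMSC, 0.131 and 0.0910 in PM-LMSC and 0.0874 and 0.0291 in M-LMSC. Both A-LMSC libraries lay above the other 4, with an estimated 29.9 and 18.1 fragments against 0.787 to 3.15. Mrc1 of the same list had 0.271 and 0.261 FPKM in A-LMSC, 0.373 and 0.161 in PM-LMSC and 1.06 and 0.543 in M-LMSC. Both M-LMSC libraries were the highest for Mrc1, on an estimated 112 and 57.3 fragments. Neither Chil3 nor Mrc1 reached the filter. Timp1, an inhibitor of metalloproteinases, was the most abundant of the list at 837 to 1013 FPKM, and Fcer2a and Ccl24 were listed at 0 in all 6 libraries.

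STAT factors bind palindromes of TTC and GAA, and STAT6 is known to accept a spacing of 4 bases. The promoters of RefSeq (GRCm38.p6), 300 bases around each gene start, were searched for TTCNNNGAA and TTCNNNNGAA, each of which reads the same on both strands. All 10 members had a promoter in the table, and 0 of 10 held either motif, beside 8.30% and 6.95% of 32851 promoters. Of the 14 response genes with a promoter, 3 held the first and 3 the second, beside the same shares of promoters. A gene was counted if any of its promoters held the motif, while the shares are over single promoters. The counts and the shares thus have different units. The stretches with the spacing of 4 are printed with 10 bases on each side, the motif in capitals, to set sequence beside level for targets of the axis.

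Fcer2a, chr8:3691010-3691039, minus strand: agagggtgaaTTCCCAAGAAgggccaggag
Ccl17, chr8:94810289-94810318, plus strand: cgagtgaccaTTCTCTGGAAagccacaaac
Retnla, chr16:48842454-48842483, plus strand: agaatcataaTTCACAAGAAattgctaaac

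Fcer2a, the low-affinity IgE receptor, was listed at 0 in all 6 libraries. Retnla, a secreted product of alternatively activated macrophages, was above 0 in PM-LMSC replicate 1 alone, at 0.113 FPKM. Ccl17, a chemokine that attracts type 2 T cells, had 0.374 and 0.111 FPKM in A-LMSC, 0.528 and 0.368 in PM-LMSC and 1.30 and 0.822 in M-LMSC, which rest on an estimated 1.00 to 11.0 fragments per library, too few for its stages to be ranked. A match is a run of letters and not a measured binding site.

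Markers of other cells moved with some of these values. Of 16 haematopoietic markers 14 were highest in both M-LMSC libraries, among them 9 of the 9 tested, beside 11.8% of all genes tested. Their summed level was 145.8 and 136.0 FPKM in A-LMSC, 187.0 and 87.1 in PM-LMSC and 438.4 and 317.4 in M-LMSC. Lyz2, which has a close relative in Lyz1, had 115 and 106 FPKM in A-LMSC, 147 and 60.6 in PM-LMSC and 362.3 and 249.7 in M-LMSC. Its log2 fold change in M-LMSC vs A-LMSC was 1.44 (SE 0.39, limma adjusted p = 0.189; with the replicate block, adjusted p = 0.0288). By limma 0 of the 9 markers tested passed in M-LMSC vs A-LMSC, where 9 of 9 had an unadjusted p under 0.05 beside 14.6% of all genes tested, and with the replicate block 7 of 9 passed, all higher, beside 3.92%. Ptprc was not at 0 in any library. It was not among the 14, with 0.0728 FPKM in PM-LMSC replicate 1 and 0.0492 in M-LMSC replicate 2. Il13ra1, Stat3, C3 and 4 of the 12 response genes tested were, like 14 of 16 haematopoietic markers, highest in both M-LMSC libraries. So were 5 of 9 epithelial markers (Epcam, Cdh1, Krt14, Cldn3 and Cldn4), none of which reached the filter. The part of haematopoietic or epithelial cells in the values of Il13ra1, Stat3, C3 and those response genes was not tested. Fewer cells of a type and less RNA per cell cannot be told apart in these bulk libraries.

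**Figure D3:**
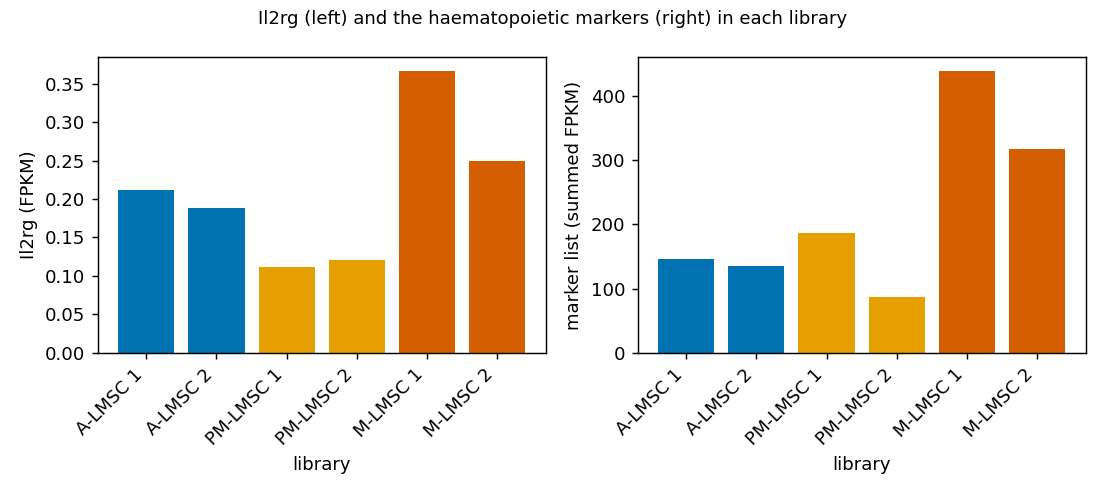
Bars are the FPKM of Il2rg (left) and the summed FPKM of 16 haematopoietic markers (right) in each of the 6 libraries, with stages in color. The summed markers are highest in both M-LMSC libraries and lowest in PM-LMSC replicate 2. The bars of Il2rg rest on an estimated 3.94 to 14.5 fragments each, too few to rank the libraries.

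Among the remaining lists, 1 gene passed in the comparisons by limma: Krt19, a keratin listed with the mesothelial markers, with 13.8 and 17.3 FPKM in A-LMSC, 8.09 and 9.28 in PM-LMSC and 4.92 and 4.49 in M-LMSC. It fell in M-LMSC vs A-LMSC with a log2 fold change of -1.53 (SE 0.15, limma adjusted p = 0.0395). The call was lost when an A-LMSC library (limma adjusted p = 0.0978 without replicate 1 and 0.255 without replicate 2) or a PM-LMSC library (0.119 and 0.120) was left out. The mesothelial list as a whole went the other way, with a fold change above 0 for 5 of 6 markers in that comparison. Upk1b, the most abundant, had 63.8 and 95.02 FPKM in A-LMSC, 166.8 and 221 in PM-LMSC and 106 and 256.9 in M-LMSC. With the replicate block 4 of 6 passed as higher and 1 as lower there, beside 3.92% of all genes tested. Of 9 epithelial markers 2 reached a mean of 1 FPKM and were tested, and 5 of the others were highest in both M-LMSC libraries. Krt18, the most abundant, ran from 2.50 to 10.2 FPKM, and Epcam had 0.326 and 0.473 FPKM in M-LMSC and was at 0 in each library of the earlier stages. With the replicate block 2 of 2 passed as higher in each later stage against A-LMSC, where limma without it gave 0 and an unadjusted p under 0.05 for 2 of 2. Over all genes tested the block gave 0.292% in PM-LMSC vs A-LMSC and 3.92% in M-LMSC vs A-LMSC. Of 6 endothelial markers 1 was tested, Kdr, with 1.11 to 2.31 FPKM, which passed in M-LMSC vs A-LMSC with the replicate block only.

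The regulators around STAT6 showed no calls by limma. Of the phosphatases and PIAS proteins that restrain STATs, 0 of 7 tested passed in any comparison, with 0 at an unadjusted p under 0.05. Of the adaptors of the IL-4 receptor 0 of 5 passed, with 1 at the unadjusted threshold, in M-LMSC vs PM-LMSC. The most abundant genes of these lists were Ptpn11, at 13.8 to 27.1 FPKM, and Shc1, at 14.9 to 25.4 FPKM, each lowest in M-LMSC replicate 1. Of the other STATs 0 of 5 tested passed, with 2 at the unadjusted threshold, both in M-LMSC vs A-LMSC, and of the SOCS family 0 of 5, with 0. Stat3 had a log2 fold change of 0.48 in M-LMSC vs A-LMSC (SE 0.12, limma adjusted p = 0.160). Of the 13 stromal markers 0 passed, with 4 at the unadjusted threshold in PM-LMSC vs A-LMSC and 4 in M-LMSC vs PM-LMSC. At that threshold stood 6.53% of all genes tested in PM-LMSC vs A-LMSC, 14.6% in M-LMSC vs A-LMSC and 8.94% in M-LMSC vs PM-LMSC.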

How the data were processed

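The authors deposited FPKM values for 6 RNA-seq libraries, 1 column per library. The submitters' processing notes name TopHat2 2.0.9 and mm10; the counter and annotation are not given in the sources used here. The 10279 genes whose mean reached 1 FPKM were tested on log2(FPKM + 1) with limma 3.58.1 in R 4.3.3, with 1 mean per stage and all 6 libraries in the fit. Adjustment followed Benjamini and Hochberg across the genes tested, with a threshold of 0.05. The members and the gene lists were chosen with earlier results of these data known. Named genes were the members, C3, list genes past the threshold, the most abundant gene of each list, list genes needed to describe ligands, relatives and response genes, and the 5 genes nearest in profile to the most variable member. Cdh1, Krt14, Cldn3, Cldn4 and Mrc1 were named after their values were seen. A gene of the response list is counted in its totals and is not reported here by name. Where a gene name occurred more than once in the table, its first identifier was used. The labels number the libraries 1 and 2 in each stage. Same-numbered libraries deviated from their stage means together (correlations over 10279 genes of 0.238, 0.307 and 0.491). With 2 libraries a stage there is only 1 such correlation per pair of stages, so these do not settle whether the numbers mark pairs. The main fit did not use the numbers, and the replicate block, which treats them as pairing, was an alternative. Depth was estimated from the spacing of low values, because the table holds no counts. The other alternatives were a pseudocount of 0.1, no filter, quantile normalization, median centring, only the libraries of the 2 stages compared, and leaving out each library in turn. Exon overlaps came from GENCODE M21, and blastn 2.17.0 found no copy of a member's transcript outside genes that overlap it. The limma step was tested on simulated data.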

Additional observations from a re-analysis of the deposited data

Results flagged for a closer look

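The listed values of Il2rg lay on opposite sides of A-LMSC at the later stages: the PM-LMSC libraries had less of it than either A-LMSC library, and the M-LMSC libraries had more. The difference between M-LMSC and PM-LMSC was 0.226 on the log2(FPKM + 1) scale. Il2rg did not reach the filter, so this difference was not tested in the comparisons above. Without the filter, limma gave it an adjusted p of 0.377, and 0.882 for PM-LMSC vs A-LMSC. The values rest on an estimated 3.94 to 14.5 fragments per library, too few for the stages to be ranked.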

How the results depend on the processing

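The number of genes called depended on the design. Without the filter it was 1 in PM-LMSC vs A-LMSC and 3 in M-LMSC vs A-LMSC. With only the libraries of the 2 stages compared it was 29 and 1, and with the replicate block 30 and 403, and 43 in M-LMSC vs PM-LMSC. With each library left out in turn it ran from 1 to 30 in PM-LMSC vs A-LMSC, from 1 to 99 in M-LMSC vs A-LMSC and from 2 to 25 in M-LMSC vs PM-LMSC; the lone library left in a stage is then assumed to vary like the other stages. The cause was not tested. Of 288 log2 fold changes of members under the alternatives, 269 kept their direction and their side of the threshold and 19 changed sign, and 0 were past the threshold. In PM-LMSC vs A-LMSC, Il13ra1 had -0.0254 with median centring, -0.0297 with quantile normalization and -0.0259 to 0.0372 with libraries left out in turn. With libraries left out the range there was -0.0686 to 0.213 for Jak1, -0.133 to 0.424 for Socs1 and -0.857 to 0.405 for Lyz2. In M-LMSC vs A-LMSC it was -0.0024 to 0.684 for Il4ra, -0.0151 to 0.684 for Jak2, -0.195 to 0.0801 for Jak3 and -0.299 to 0.425 for Socs1, which had -0.0077 with quantile normalization. In M-LMSC vs PM-LMSC it was -0.186 to 0.501 for Il4ra, -0.117 to 0.190 for Stat6, -0.173 to 0.526 for Jak2, -0.0695 to 0.206 for Jak3 and -0.444 to 0.279 for Socs1. Stat3, Tyk2, C3 and Krt19 kept their sign in all 36 values each. Krt19 lost its call in 6 of them, and its adjusted p in M-LMSC vs A-LMSC ran from 0.00955 to 0.255. The replicate block changed the adjusted calls of C3, Lyz2 and the gene lists given with it, and of none of the 8 members, whose calls at the unadjusted threshold it raised. Il2rg, Il13ra2, Il4 and Ccl17 rest on too few fragments for their stages to be ranked.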
